A study of Mus musculus with 102 samples.

Results

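The comparison described here set 3 samples of wild-type mouse embryonic stem cells against 3 samples of TET triple-knockout cells, all taken on day 29 of a mock-treated culture. These are the 6 amplicon samples that carry the labels WT mock day 29 and TTKO mock day 29, of 78 amplicon samples and 102 samples in the series. The wild-type line, written WT throughout, is wild-type for the Tet genes and carries floxed alleles of Dnmt3a and Dnmt3b on a C57BL6/J background. The TTKO line is 1 clone derived from it, picked for mutations made with CRISPR in Tet1, Tet2 and Tet3. Mock treatment replaced the Cre protein by its buffer, so the floxed Dnmt3a and Dnmt3b alleles were left intact in both groups. The series follows DNA methylation over time with and without the DNMT3 enzymes, and this pair of groups asks whether the difference between cells with and without TET proteins was present after long culture with DNMT3 still there. Nothing in the files measures the Tet or Dnmt3 alleles themselves. Because TTKO is a single clone, loss of TET and any other property of that clone cannot be told apart. Replicates carry numbers, and no label says that they came from separate clones, so the tests measure the spread between these cultures.

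Cytosines in CpG dinucleotides are methylated by the de novo enzymes DNMT3A and DNMT3B and kept methylated through replication by DNMT1. The TET proteins are dioxygenases that oxidise 5-methylcytosine to 5-hydroxymethylcytosine and further products, from which an unmodified cytosine can be restored. In embryonic stem cells, distal elements bound by transcription factors are found as low-methylated regions (LMRs), CpG-rich promoters as unmethylated regions (UMRs), and most of the remaining genome as fully methylated regions (FMRs). Bisulfite sequencing reads both 5-methylcytosine and 5-hydroxymethylcytosine as methylated, so a methylation level below is the sum of both.

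The panel was designed for 88 regions, and the deposited levels, from which the authors had removed CpGs of low coverage and 1 variable amplicon, hold 405 CpGs in 65 amplicons. Of these, 384 CpGs in 62 amplicons had a level in all 6 samples and entered the tests. Summed over CpGs, coverage was between 3427459 and 4706462 per sample, and the median coverage of a CpG between 5160 and 7488 reads. The remaining 21 CpGs lay in 3 amplicons that failed in 1 sample each, and their values are given at the end. No amplicon lay at or nearest to a gene of the imprinted or pluripotency lists searched, and 1 lay next to a gene of the germline list, Tuba3a.

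The sequences of amplicons on which the results turn are shown first, all on the plus strand of mm9 and running from the first to the last measured CpG unless stated otherwise. In the first group, capitals mark the CpGs that were higher in TTKO. Any cg left in lower case was either not called or not among the CpGs listed. LMR59 and LMR23 were among the 3 tested amplicons with the widest gains, ES-specific LMR33 gained most in its class and REST75 most among the REST LMRs. In ES-specific LMR34, CTCF48 and REST60 neighbouring CpGs differed in how far they moved.
LMR59, chr12:54133872-54134056, intron of Akap6: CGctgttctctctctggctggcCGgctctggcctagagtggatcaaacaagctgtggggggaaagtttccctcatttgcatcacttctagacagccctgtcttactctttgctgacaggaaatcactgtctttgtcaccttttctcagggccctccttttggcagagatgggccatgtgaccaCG
LMR23, chr13:107863465-107863626, intergenic: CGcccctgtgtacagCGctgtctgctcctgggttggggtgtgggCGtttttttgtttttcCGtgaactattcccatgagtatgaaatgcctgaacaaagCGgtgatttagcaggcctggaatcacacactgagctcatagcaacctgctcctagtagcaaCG
ES-specific LMR33, chr3:9601420-9601636, intron of Zfp704: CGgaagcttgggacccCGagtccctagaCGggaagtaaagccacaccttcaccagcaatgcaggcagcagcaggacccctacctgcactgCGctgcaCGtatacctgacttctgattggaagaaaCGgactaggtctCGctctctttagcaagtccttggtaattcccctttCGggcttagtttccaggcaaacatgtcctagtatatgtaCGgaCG
ES-specific LMR34, chr19:47210068-47210244, coding exon of Calhm2: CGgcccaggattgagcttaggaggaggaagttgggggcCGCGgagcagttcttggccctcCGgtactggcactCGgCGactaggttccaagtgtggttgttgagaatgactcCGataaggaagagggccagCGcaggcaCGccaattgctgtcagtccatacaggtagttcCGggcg
CTCF48, chr10:3270035-3270193, intergenic: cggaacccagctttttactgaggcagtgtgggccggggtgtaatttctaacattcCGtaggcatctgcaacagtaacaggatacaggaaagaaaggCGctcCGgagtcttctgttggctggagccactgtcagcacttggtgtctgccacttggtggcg
REST75, chr5:150291065-150291267, intergenic: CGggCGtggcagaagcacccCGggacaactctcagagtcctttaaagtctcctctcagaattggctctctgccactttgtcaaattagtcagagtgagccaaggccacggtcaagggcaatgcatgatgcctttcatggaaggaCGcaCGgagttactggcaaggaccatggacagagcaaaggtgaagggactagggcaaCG
REST60 with 20 bases on each side, chr2:143033105-143033161, intergenic: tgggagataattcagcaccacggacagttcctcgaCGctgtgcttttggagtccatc
In the next pair, capitals mark the CpGs that were lower in TTKO.
REST85, chr19:54250340-54250440, intergenic: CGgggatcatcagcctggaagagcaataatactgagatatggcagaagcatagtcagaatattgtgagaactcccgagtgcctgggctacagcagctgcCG
REST68, chr12:29516085-29516211, intron of Tssc1: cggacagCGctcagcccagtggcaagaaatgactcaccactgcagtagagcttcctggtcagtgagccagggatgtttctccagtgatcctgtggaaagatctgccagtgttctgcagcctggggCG
In the last one, which held CpGs that moved in both directions, capitals mark a partial REST motif (TTCAGCACC, here on the minus strand), and the stretch begins at the third measured CpG of the amplicon.
REST64, chr2:23146681-23146939, intergenic: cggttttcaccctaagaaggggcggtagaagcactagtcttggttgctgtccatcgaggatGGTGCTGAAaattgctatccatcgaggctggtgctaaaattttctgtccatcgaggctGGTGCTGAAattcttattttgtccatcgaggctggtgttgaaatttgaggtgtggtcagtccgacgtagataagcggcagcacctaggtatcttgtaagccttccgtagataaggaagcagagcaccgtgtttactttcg

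After 29 days of mock culture the TTKO cells were more methylated than wild-type cells. The mean level over the 384 CpGs was 27.5, 28.5 and 28.6% in the WT samples and 39.0, 38.3 and 39.8% in the TTKO samples. Every TTKO sample was thus above every WT sample. The difference was 10.9 percentage points in the mean, against a median difference of a CpG of 3.52 points, with SDs of 0.568 in WT and 0.737 in TTKO (n = 3 each). An exact two-sided permutation test over the 6 samples gave p = 0.1, the smallest p that 3 samples against 3 can give.

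Of the 384 CpGs, 182 differed between the lines (47.4% of those tested) at an adjusted p below 0.05 in a two-sided quasi-binomial logistic model with the Benjamini-Hochberg adjustment. Of these, 162 were higher in TTKO (42.2%) and 20 were lower (5.21%). The rises were much wider than the falls. Their median was 20.0 percentage points and the widest was 73.9, while the falls had a median of -4.81 points. With a difference of at least 10 points also required, 123 CpGs remained (32%). A rise of at least 20 points was measured at 81 CpGs and one of at least 50 points at 24. For scale, the median SD between replicates was 1.66 points for a WT CpG and 1.82 for a TTKO CpG. The 3 TTKO samples lay above the 3 WT samples without overlap at 187 CpGs (48.7%) and below them at 43 (11.2%). When each replicate was left out in turn, 133 of the 162 rises and 6 of the 20 falls were called every time, so the falls depended more on single samples.

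**Figure D1:**
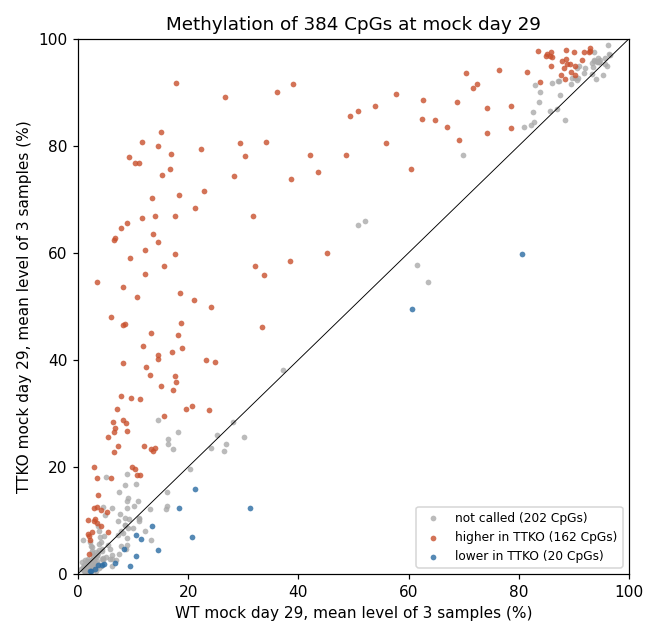
Mean methylation level (%) of each of 384 CpGs in the 3 WT samples (horizontal axis) and the 3 TTKO samples (vertical axis) at mock day 29, with the diagonal drawn for equal levels. The 162 CpGs called higher in TTKO lie above the diagonal, by up to 73.9 percentage points, and the 20 called lower lie under it.

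Summed over the CpGs of an amplicon, 44 of 62 amplicons differed (71% of those tested), of which 37 were higher in TTKO (59.7%) and 7 were lower (11.3%). CpGs of 1 amplicon share reads, so this count rests on more independent units than the count of CpGs.

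**Figure D2:**
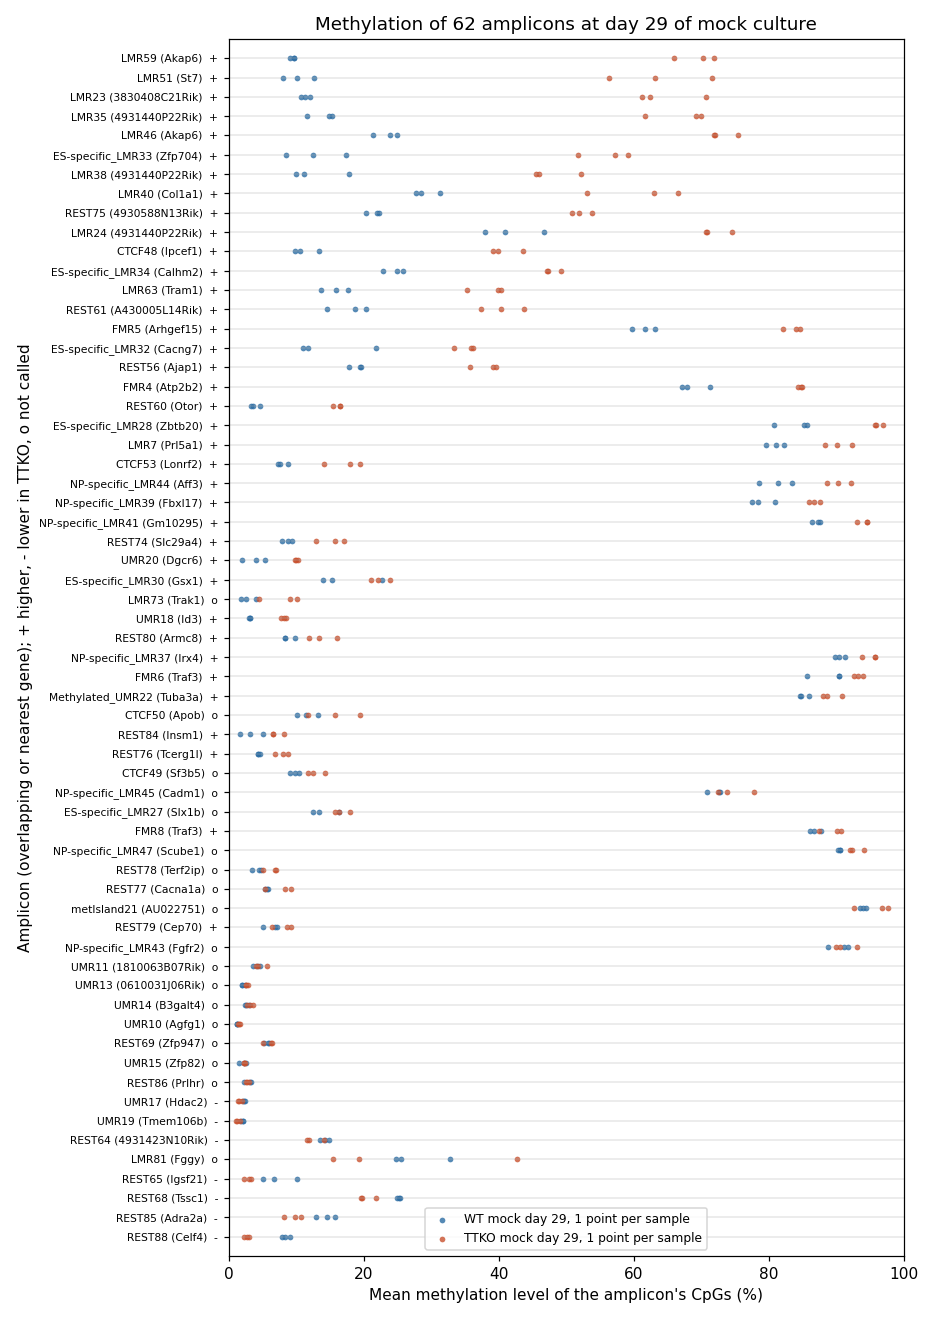
Mean methylation level (%) of the CpGs of each of 62 amplicons at mock day 29, 1 point per sample, with WT in blue and TTKO in red, ordered by the difference between the lines. The amplicon name is followed by the overlapping or nearest protein-coding gene and by the call, and the amplicons at the top separate by up to 59.9 percentage points while those at the bottom are lower in TTKO by at most 5.83.

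The region classes of the panel differed in how far the lines lay apart. The other constitutive LMRs, the low-methylated regions of the panel that its list assigns neither to REST nor to CTCF nor to 1 cell type, had the widest gap. Their 53 CpGs averaged 23.8, 24.5 and 24.0% in WT and 57.6, 55.4 and 60.1% in TTKO, a difference of 33.6 points, and 43 CpGs rose and none fell. In the ES-specific LMRs (64 CpGs) the means were 28.3, 30.9 and 31.2% against 47.2, 45.3 and 46.7%, a difference of 16.3 points, with 45 CpGs higher and 3 lower. The CTCF LMRs (15 CpGs) rose from 9.37, 10.7 and 10.97% to 25.9, 24.0 and 26.5%, with 5 CpGs higher (33.3%, against 42.2% over all CpGs) and none lower. Most of this gain was in CTCF48, at 29.6 points, while CTCF49 and CTCF50 were not called, and the median difference of a CpG in the class was 6.25 points. None of these groups of samples overlapped, and for each the exact permutation test gave p = 0.1, the smallest possible.

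At the classes that are highly methylated in these cells the gap was narrower. The 15 CpGs of the fully methylated regions averaged 74.0, 76.4 and 76.2% in WT and 87.5, 85.9 and 87.8% in TTKO, 11.6 points apart, and 9 of them rose. The median difference of a CpG in this class was 4.95 points. The LMRs that the deposited list calls NP-specific, an abbreviation the sources used here do not spell out, had high levels in both lines. Their 39 CpGs averaged 86.1, 85.9 and 86.9% in WT and 90.8, 90.7 and 92.1% in TTKO, with 17 higher (43.6%, near the 42.2% over all CpGs) and none lower. The methylated island in AU022751 had 12 CpGs, none of which was called, at 94.3, 93.6 and 93.9% against 92.6, 97.7 and 96.8%, and there the lines overlapped (difference 1.78 points, exact permutation p = 0.4). The overlap came from TTKO replicate 1, without which the difference was 3.33 points (exact permutation p = 0.1). Without TTKO replicate 2 it was 0.777 points (exact permutation p = 0.8). The methylated UMR beside Tuba3a, a testis alpha-tubulin gene, stood at 84.8, 85.9 and 84.7% in WT and 88.7, 88.0 and 90.8% in TTKO, and 3 of its 6 CpGs rose.

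The REST LMRs and the unmethylated regions had the smallest mean levels in TTKO, although single REST LMRs were much higher there. REST is a repressor of neuronal genes that binds a long bipartite motif. The 98 CpGs of its LMRs averaged 10.8, 11.6 and 11.8% in WT and 17.4, 17.6 and 18.7% in TTKO. The mean difference was 6.51 points but the median difference of a CpG was -0.206, since 29 CpGs rose (29.6%, against 42.2% over all CpGs), 15 fell (15.3%, against 5.21%) and 54 were not called. The 82 CpGs of the unmethylated regions averaged 2.44, 2.75 and 2.64% in WT and 3.66, 3.39 and 3.23% in TTKO, with 11 higher (13.4%), 2 lower (2.44%) and 69 not called. Here too the median difference of a CpG, -0.239 points, had the opposite sign to the mean of 0.815, which was 1.33 when averaged over amplicons.

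**Figure D3:**
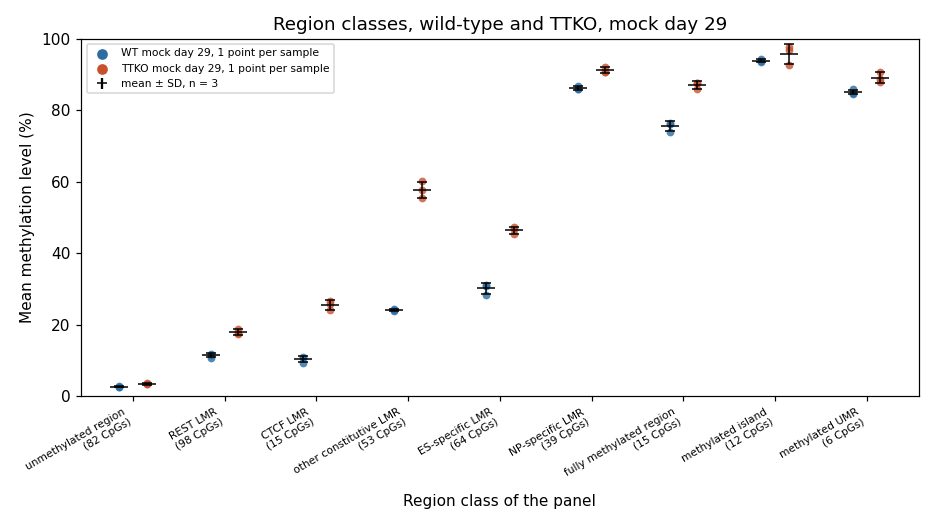
Mean methylation level (%) of the tested CpGs of each region class at mock day 29, 1 point per sample with the mean and SD over 3 samples, WT in blue and TTKO in red. The other constitutive LMRs stand apart by 33.6 percentage points, the unmethylated regions by 0.815, and the samples of the methylated island overlap.

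The class names were not borne out by the level everywhere. LMR7, an intergenic amplicon near Prl5a1 counted among the constitutive LMRs, was at 79.7, 82.2 and 81.0% in WT, and ES-specific LMR28 in a coding exon of Zbtb20, a zinc finger factor gene, was at 80.8, 85.7 and 85.3%. Neither is low-methylated in these wild-type samples. Both were higher in TTKO, by 9.33 points (92.4, 88.3 and 90.2%) and by 12.2 points (95.9, 95.7 and 96.9%).

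The widest gain among the 62 tested amplicons was in an intron of Akap6, which codes for a scaffold protein that anchors protein kinase A. There LMR59 was at 9.66, 9.67 and 9.12% in WT and at 65.9, 70.3 and 71.9% in TTKO. The difference was 59.9 points, with a log2 odds ratio of 4.43 (SE 0.21, adjusted p = 2.59e-06 in the quasi-binomial model). The adjacent LMR46 (chr12:54133624-54133839) rose from 21.4, 24.9 and 23.9% to 75.4, 72.0 and 71.9%. All 7 CpGs of both amplicons rose. The 2 with the widest rises among the CpGs tested ended LMR46, where chr12:54133829 went from 17.7, 21.2 and 14.6% to 91.7, 92.3 and 91.2%, and chr12:54133838 from 12.3, 12.9 and 9.76% to 81.2, 81.1 and 79.9%.

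A second neighbourhood with several amplicons lay on chromosome 3, in intergenic sequence 51130 bases or more from 4931440P22Rik. Its 3 amplicons moved by different amounts. LMR35 (chr3:65259623, 1 CpG) was at 15.3, 11.6 and 14.9% in WT and 69.1, 61.7 and 69.9% in TTKO. LMR38 (chr3:65259965-65260050) rose from 9.97, 17.8 and 11.2% to 45.9, 45.6 and 52.1%, and LMR24 (chr3:65259461-65259582), which began higher, from 38.0, 46.7 and 41.0% to 70.7, 70.9 and 74.5%. The samples of the lines did not overlap in any of them, and all 10 CpGs were called.

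Single amplicons at other loci changed as far. LMR51 (chr6:17856304-17856594), which spans a coding exon and intron of the tumour suppressor candidate St7, was at 10.1, 7.96 and 12.6% in WT and 63.2, 71.6 and 56.3% in TTKO, a difference of 53.5 points (log2 odds ratio 3.78, SE 0.34, adjusted p = 4.76e-05). LMR23, which lies 39712 bases from 3830408C21Rik, was at 10.7, 11.3 and 12.05% against 61.3, 62.4 and 70.7%. LMR40 (chr11:94734348-94734642), 62897 bases from the collagen gene Col1a1, was at 31.3, 27.7 and 28.5% against 63.0, 53.0 and 66.5%. Its TTKO samples spread more than most, and the CpG at chr11:94734426 had TTKO levels of 65.2, 41.1 and 70.8%, the widest spread between replicates in the panel, though none reached the WT levels of 13.3, 11.2 and 3.89%. A nearest gene is given here for location only; expression was not analysed here.

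LMR63, 32654 bases from Tram1, was at 13.6, 17.6 and 15.9% in WT and 40.3, 35.3 and 39.9% in TTKO (adjusted p = 3.81e-05), and all 4 of its CpGs rose. Of the other constitutive LMRs 2 were not called, LMR81 and LMR73. LMR81, 78 bases from the gene Fggy, was at 32.8, 24.8 and 25.5% in WT and at 15.4, 42.7 and 19.3% in TTKO. One TTKO sample was above and the others were below all WT samples, and the amplicon was not called (adjusted p = 0.968). LMR73 in an intron of Trak1 was not called either, with TTKO levels of 10.1, 4.46 and 9.13% against 2.61, 1.78 and 4.07% in WT (adjusted p = 0.0742).

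Among the ES-specific LMRs the intron of the zinc finger gene Zfp704 gained most. LMR33 was at 8.40, 12.4 and 17.4% in WT and 59.1, 51.7 and 57.2% in TTKO, 43.2 points apart, and all 10 of its CpGs rose. By contrast LMR27 (chr7:133835976-133836188) in Slx1b, a subunit of a structure-specific endonuclease, was at 13.4, 16.4 and 12.4% against 17.9, 16.3 and 15.8% and was not called as a whole (adjusted p = 0.0812). Of its 20 CpGs 7 rose, 3 fell and 10 were not called.

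At some loci neighbouring CpGs of the same amplicon differed sharply. In the coding exon of Calhm2, a member of the calcium homeostasis modulator channel family, 10 of the 11 CpGs of LMR34 rose by between 11.2 and 57.1 points. The CpG at chr19:47210128 was at 23.3, 22.5 and 21.4% in WT and 79.8, 80.5 and 78.1% in TTKO (log2 odds ratio 3.72, SE 0.08, adjusted p = 3.82e-08, coverage 29603 or more). The last CpG of the same amplicon, chr19:47210243, was at 38.2, 34.2 and 39.3% in WT and 36.8, 39.4 and 38.4% in TTKO. Its log2 odds ratio was 0.04 with a 95% interval of 0.20 to each side, the narrowest among the 13 CpGs between 20 and 80% in WT that were not called. Both positions can be found in the printed sequence, the first in capitals and the second as the closing cg.

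CTCF48 showed the same kind of contrast. CTCF is the insulator protein whose binding sites are low-methylated. This amplicon, 23871 bases from Ipcef1, had 3 CpGs that rose and 3 that were not called. The CpG at chr10:3270090 went from 19.8, 26.4 and 34.1% to 85.9, 90.6 and 90.9%, and those at chr10:3270131 and chr10:3270136 rose by 47.5 and 55.8 points. The other 3 were not called. The leftmost, chr10:3270035, was at 4.11, 7.31 and 10.7% in WT and 15.5, 8.62 and 21.9% in TTKO, with overlapping samples (adjusted p = 0.0709, and 0.0309 with the replicate number as a block), and had been called higher on day 0 (adjusted p = 0.00236). At chr10:3270068 the levels were 9.03, 8.88 and 7.64% against 7.68, 12.6 and 10.99%, and at chr10:3270192 they were 5.14, 2.52 and 3.74% against 7.42, 5.06 and 4.15%.

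REST56 and REST60 held neighbours of this kind only a few bases apart, and both pairs were picked out after their values were seen. In REST56, 196473 bases from Ajap1, the CpG at chr4:153053454 was at 24.7, 32.6 and 33.5% in WT and 76.8, 81.0 and 76.5% in TTKO (adjusted p = 3.66e-05). The CpG 2 bases on, at chr4:153053456, was at 2.91, 3.58 and 6.08% against 1.99, 0.127 and 2.10% and was not called (adjusted p = 0.0996). In REST60 near Otor the distance was 3 bases. At chr2:143033137 the levels were 0.739, 2.24 and 0.987% in WT and 0.178, 1.17 and 1.99% in TTKO, whereas at chr2:143033140 they were 8.79, 7.82 and 8.08% and 45.9, 48.2 and 45.5%. The second rose by 38.3 points (adjusted p = 4.64e-06) and the first was not called (adjusted p = 0.584).

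Of the 18 REST LMR amplicons, 9 rose, 5 fell and 4 were not called, where 59.7% of all amplicons rose and 11.3% fell. REST75, 17870 bases from 4930588N13Rik, gained most. It was at 20.3, 21.9 and 22.2% in WT and 50.9, 51.8 and 53.9% in TTKO, and all 6 of its CpGs rose, by 6.86 to 52.6 points. REST86, 605 bases from the prolactin-releasing hormone receptor gene Prlhr, differed least, at 3.31, 3.07 and 2.22% against 2.48, 2.76 and 3.01%.

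The 5 called amplicons with the widest falls in TTKO were all REST LMRs, and 15 of the 20 CpGs that fell lay in this class, which held 98 of the 384 CpGs tested. In it 15.3% of CpGs fell, against 5.21% over all CpGs, and 6 of the 15 were in REST64 alone. The amplicon in an intron of Celf4, a neuronal RNA-binding protein, was at 7.87, 8.39 and 9.04% in WT and 2.64, 2.92 and 2.26% in TTKO, a log2 odds ratio of -1.72 (SE 0.24, adjusted p = 0.000629). REST85, 126868 bases from the adrenergic receptor gene Adra2a, was at 13.0, 14.5 and 15.7% against 8.16, 9.78 and 10.7%, and REST68 in Tssc1 at 24.9, 25.2 and 25.4% against 21.8, 19.7 and 19.6%. These falls were of a few points, and the samples did not overlap. REST65 (chr4:139814998-139815204), 12299 bases from Igsf21, was at 10.1, 5.08 and 6.73% against 3.01, 2.29 and 3.32% (adjusted p = 0.0321), a call that was lost when a replicate was left out (adjusted p up to 0.124). A fall here means a lower level in TTKO than in WT at day 29. On day 0 the difference had been -3.36 points in the Celf4 amplicon, -0.146 in REST85, -1.78 in REST68, -0.282 in REST65 and 1.81 in REST64. In REST68 both lines had risen since day 0, WT from a mean of 19.1 to 25.2% and TTKO from 17.3 to 20.4%.

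REST64, 23988 bases from 4931423N10Rik, held CpGs that moved both ways. The CpGs at chr2:23146681 and chr2:23146703, left of the first partial motif, rose from means of 5.38 and 2.87% to 25.5 and 20.0%. From chr2:23146735 on, none of the CpGs was higher in TTKO, and 6 were called lower. At the right end, chr2:23146904 was at 31.7, 31.1 and 30.9% in WT and 11.3, 8.87 and 16.7% in TTKO, and chr2:23146938 at 78.0, 84.3 and 79.4% against 54.9, 55.0 and 69.3%. The last 2 were the widest falls among the CpGs tested. For the amplicon as a whole the fall of 1.60 points was called on summed reads (adjusted p = 0.00156) but not by limma on the mean level (adjusted p = 0.248).

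A partial REST motif, with the letters TTCAGCACC or GGACAGCG, searched on both strands over each amplicon and 50 bases to each side, was found in 4 of the 18 REST LMR amplicons and in none of the other 47, that is in 6.15% of all amplicons. They are REST60, REST64, REST68 and REST69. Within 25 bases of such a site, 1 of 11 CpGs rose and 5 fell, with a median of 4.27% in WT and 1.69% in TTKO. Between 25 and 75 bases away, 4 of 8 rose and none fell, with medians of 5.74 and 9.36%. Farther away, between 75 and 400 bases, none of 9 rose and 4 fell, with a median difference of -3.31 points. Over all CpGs tested 42.2% rose and 5.21% fell. Falls were thus found both next to the motif and far from it. These CpGs come from few amplicons, and no test was run on them. The core CTCF motif was found in 3 of 5 CTCF LMR amplicons and 3 of the other 60 (9.23% of all), and none of the 6 tested CpGs in the CTCF amplicons with a match was called.

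The lowest levels call for care. Over the unmethylated regions the median CpG was at 2.16, 2.51 and 2.06% in WT and 1.90, 1.74 and 1.91% in TTKO, so a slightly lower floor went along with the falls in TTKO. The efficiency of bisulfite conversion in each sample was not analysed here, and its part in differences of this size was not tested. UMR17 beside Hdac2, a histone deacetylase gene, at 2.13, 2.43 and 2.19% against 1.92, 1.51 and 1.39%, and UMR19 at Tmem106b, at 2.03, 1.87 and 2.17% against 1.00, 1.14 and 1.60%, were called lower by less than 1 point. Their calls were lost when a replicate was left out (adjusted p up to 0.0567 and 0.0744). UMR20, 15836 bases from Dgcr6, rose by the most in its class, from 1.90, 5.35 and 4.01% to 10.3, 9.92 and 9.75%. Only 1 of its 3 CpGs was called, with a rise of 19.9 points. UMR18, 8537 bases from Id3, rose from 3.16, 3.04 and 3.16% to 8.45, 8.22 and 7.74%, with 6 of its 10 CpGs higher, 1 lower and 3 not called.

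The 4 tested fully methylated regions all lay in introns, and in WT FMR5 and FMR4 were the furthest from full methylation. FMR5 in an intron of Arhgef15 was at 59.8, 61.7 and 63.1% in WT and 84.6, 82.1 and 84.0% in TTKO. FMR4 in an intron of Atp2b2, a plasma membrane calcium pump, was at 67.1, 71.2 and 67.9% against 84.9, 84.3 and 84.7%. FMR6 and FMR8, both in Traf3, a signalling adaptor gene, stood closer to full methylation in WT, at 85.6, 90.4 and 90.5% and at 86.2, 86.7 and 87.7%. They differed between the lines by 4.49 and 2.49 points, and both calls were lost when a replicate was left out. In the NP-specific class, LMR44 in Aff3 rose by 9.26 points, and LMR43 in the growth factor receptor gene Fgfr2 differed by 0.623 points and was not called (adjusted p = 0.968).

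A switch from low to high was seen at 19 CpGs in 11 amplicons, defined as below 20% in every WT sample and above 50% in every TTKO sample. LMR23 alone held 5 of them. There chr13:107863465 was at 13.1, 14.1 and 18.1% in WT and 81.6, 80.6 and 85.4% in TTKO, and chr13:107863480, 15 bases on, at 9.60, 11.7 and 9.51% against 73.8, 75.1 and 81.3%.

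The size of the difference went with the level that wild-type cells had on day 0, in samples not used in the comparison. Of the 121 CpGs below 5% on day 0, 20 were higher in TTKO at day 29 (16.5%). The share was 54.6% of the 141 CpGs from 5 to 20%, 70.6% of the 34 from 20 to 50%, 58.8% of the 34 from 50 to 80% and 38.9% of the 54 above 80%. The median difference was 24.99 points in the group from 20 to 50% and 2.94 points above 80%. GC content and CpG density showed one clear contrast. Among the 29 CpGs in windows of 65% GC or more only 1 rose, and their median WT level was 2.22%, while between 45 and 55% GC 91 of 202 rose. The number of other CpGs within 100 bases showed no steady order, with rises at 22 of 63 CpGs that had 0 to 2, 65 of 126 with 3 to 5, 50 of 112 with 6 to 10 and 25 of 83 with 11 or more, against 42.2% over all CpGs. These are descriptions, since CpGs of 1 amplicon share both sequence and reads.

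A difference between the lines was already there on day 0. At that point, in 3 non-transduced samples of each line, 226 of the 384 CpGs were higher in TTKO (58.9%) and 6 lower (1.56%). Of the 162 CpGs higher at day 29, 160 had been called higher on day 0, which is 98.8% of the day 29 list and 70.8% of the day 0 list. All 162 had a higher mean in TTKO on day 0. Of the 20 lower at day 29, 3 had been called lower on day 0, 1 had been called higher and 16 had not been called. Across the 384 CpGs the differences on the 2 days had a Pearson correlation of 0.967, which describes CpGs that share amplicons and libraries.

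**Figure D4:**
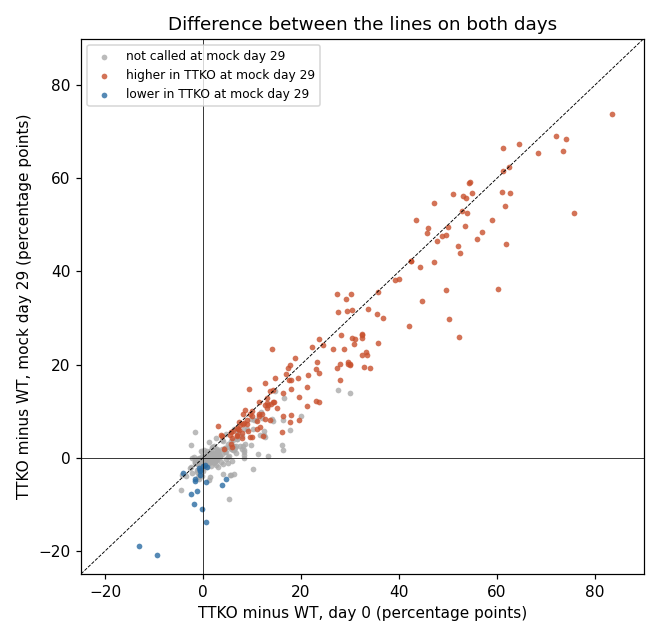
TTKO minus WT in percentage points on day 0 (horizontal axis) and at mock day 29 (vertical axis) for each of 384 CpGs, coloured by the call at day 29, with the dashed line for equal differences. Most CpGs called higher at day 29 lie near or under the dashed line, and 305 of the 384 had a smaller difference at day 29 than on day 0.

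The difference was nevertheless narrower at day 29 than on day 0. WT rose from 26.7, 25.9 and 26.4% to 27.5, 28.5 and 28.6%, and TTKO went from 40.7, 40.2 and 39.9% to 39.0, 38.3 and 39.8%. The gap between the lines was 13.97 points on day 0 and 10.9 at day 29. This change of -3.12 points had p = 0.005 in an exact two-sided permutation test of the day labels within each line (400 arrangements), the smallest p it can give. No single CpG passed the adjusted threshold for the change (0 of 384, or 0%, in the quasi-binomial interaction test, 66 at an unadjusted p below 0.05, and 0 by limma, with 57 unadjusted). Of the 66, the difference was smaller at day 29 for 60 and larger for 6. In WT alone 22 of 398 CpGs rose from day 0 to day 29 (5.53%) and none fell, and in TTKO alone 0 of 391 were called by the quasi-binomial test, with 67 at an unadjusted p below 0.05.

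The part of each line in this change is described here by class, and no test was run by class. In the fully methylated regions WT rose from 69.1 ± 1.23 to 75.5 ± 1.36% (SD, n = 3) and TTKO stayed at 86.7 ± 1.09 and 87.1 ± 0.987%. In the NP-specific LMRs WT went from 80.4 ± 1.01 to 86.3 ± 0.521% and TTKO from 90.8 ± 0.656 to 91.2 ± 0.796%. In the ES-specific LMRs WT was at 29.2 ± 1.49 and 30.1 ± 1.60%, while TTKO went from 49.2 ± 0.699 to 46.4 ± 0.962%. In these 3 classes the narrowing was mostly on the WT side in the first 2 and on the TTKO side in the ES-specific LMRs. The other low classes did not share 1 pattern. In the other constitutive LMRs WT moved by 2.73 points and TTKO by -1.05, and in the REST LMRs by 1.67 and -1.42. Both lines fell in the CTCF LMRs, by -1.09 in WT and -3.04 in TTKO, and in the unmethylated regions, by -0.342 and -1.18. Higher calls on day 0 that were no longer made at day 29 were 65, or 16.9% of the 384 CpGs, and 55 of these CpGs were still higher in the TTKO mean. As a share of the CpGs tested in a class, they were 7 of 12 in the methylated island and 3 of 6 in the methylated UMR. They were 6 of 15 in the fully methylated regions, 15 of 39 (38.5%) in the NP-specific LMRs and 10 of 64 (15.6%) in the ES-specific LMRs. The base of these shares is all tested CpGs and not those called on day 0. A class with more calls on day 0 had more to lose, so the shares do not rank the classes by loss of calls.

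Between these days the gap was not constant, as the 331 CpGs with a level in all 42 day 0 and mock samples showed. It was 13.6 points on day 0, 4.49 on day 4, 4.51 on day 8, 8.52 on day 10, 12.1 on day 13, 13.4 on day 17 and 10.5 on day 29. The WT samples made most of this course, going from a mean of 26.7 ± 0.444% on day 0 to 36.8 ± 2.91% on day 4 and back to 28.6 ± 0.586% on day 29 (SD, n = 3). TTKO stayed between 39.1 and 42.4%. Between day 17 and day 29 TTKO moved more than WT, from 42.3 ± 0.658 to 39.1 ± 0.857%, while WT went from 28.9 ± 0.794 to 28.6 ± 0.586%. On day 4 the WT samples were at 39.7, 36.9 and 33.9% and the TTKO samples at 39.5, 42.3 and 42.1%, the only day on which the lines overlapped. The number of CpGs called was lowest on day 4, with 194 on day 0 (58.6%), 13 on day 4 (3.93%), 63 on day 8 (19%), 126 on day 10 (38.1%), 146 on day 13 (44.1%), 146 on day 17 (44.1%) and 161 on day 29 (48.6%). These counts depend on the spread between replicates as well as on the gap. The gap was alike on days 4 and 8, but the WT SD was 2.91 on day 4 and 1.28 on day 8. Day 17, with fewer calls than day 29, had a median log2 odds ratio of 1.32 against 0.673 on day 29. The sign of the change therefore depended on the early point. Set against mock day 4 the gap at day 29 was wider by 6.22 points (exact permutation p = 0.13), and against mock day 8 by 6.33 points (p = 0.1, exact permutation test).

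**Figure D5:**
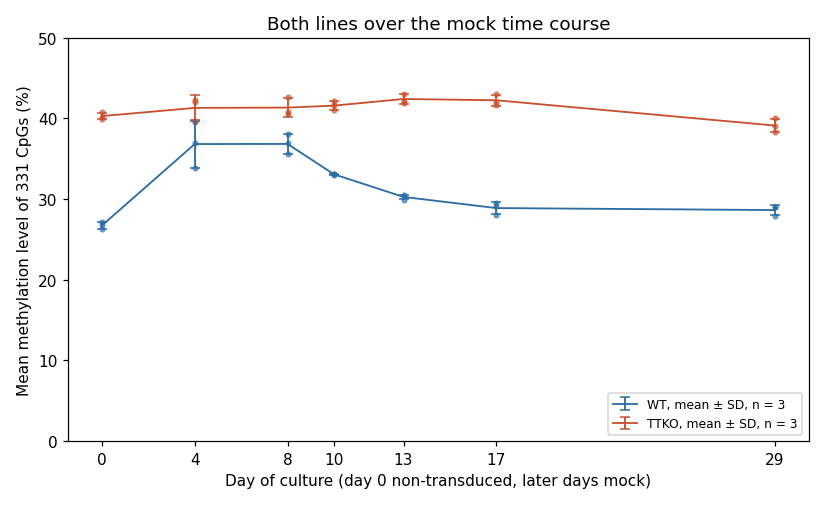
Mean methylation level (%) of 331 CpGs in each sample (points) and the mean ± SD of 3 samples (lines) for WT in blue and TTKO in red, from non-transduced day 0 through mock days 4, 8, 10, 13, 17 and 29. TTKO stays between 39.1 and 42.4% while WT rises to 36.8% on days 4 and 8 and is at 28.6% on day 29.

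The rise of wild-type cells in the early mock samples was widest in the other constitutive LMRs on day 4 and on day 8. Over the same 331 CpGs the other constitutive LMRs of WT were at 25.3% on day 0, 47.2% on day 4 and 29.3% on day 29, against 64.9, 67.6 and 63.4% in TTKO. ES-specific LMRs of WT were at 30.1, 45.3 and 31.0% on these days, and their TTKO levels were 50.3, 54.6 and 48.0%. The fully methylated regions of WT were at 69.1, 87.1 and 75.5%, and those of TTKO at 86.7, 88.1 and 87.1%. The unmethylated regions of WT were at 2.95, 3.44 and 2.61%. The study itself reports a slight rise of the WT mock samples between days 4 and 8, with stable TTKO mock samples and the same effect after Cre. It proposes a side effect of the transduction procedure that does not depend on Cre, which was not tested here. The cells grew on feeder cells up to transduction and on feeder-free plates soon after it, and the part of this in the levels of day 0 and the early mock days was not tested.

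A second readout covered 259 of the 405 CpGs. It is hybrid capture bisulfite sequencing (SureSelect) of day 0 cells, deposited as 1 value per line with replicates joined, at a median coverage of 305 reads in WT and 313 in TTKO. Of the 90 CpGs higher in TTKO at day 29 that it covered, 89 were higher in TTKO in this readout, with a median difference of 26.7 points against 24.9 in the day 29 amplicons. Of the 11 CpGs lower at day 29, 7 were lower and 4 higher, with a median difference of -0.4 points. The background was itself tilted, since of the 144 shared CpGs not called at day 29, 106 were higher and 32 lower in TTKO, with a median difference of 1.1 points. A joined value has no replicate error, so these are descriptions.

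The 3 amplicons that were not tested pointed the same way in the samples that had a level. LMR16 (chr10:94717142-94717382) in an intron of the death domain adaptor gene Cradd was at 15.1, 22.6 and 15.9% in WT and 80.3 and 83.1% in TTKO, with at most 30 reads in the third TTKO sample. CTCF52 (chr14:20659116-20659418) was at 30.4, 34.0 and 32.1% against 42.5 and 41.4%, also without the third TTKO sample. FMR9 in an intron of the thioesterase gene Acot7 (chr4:151612873-151613081) was at 84.9 and 86.3% in WT, without the second sample, and 89.96, 91.8 and 92.6% in TTKO.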

How the data were processed

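Amplicon bisulfite libraries were analysed from WT and TTKO cells at mock day 29 (3 samples each), with day 0 and the other mock days as reference. Per the study's methods, the authors trimmed MiSeq read pairs, aligned them to mm9 with Rbowtie in QuasR, and called CpGs with AmpliconBiSeq. Levels below 100 reads were removed. The authors deposited coverage as counts of reads per CpG and methylation as a fraction (methRatio); fraction times coverage gave whole reads for 100% of values within 0.01. The SureSelect file, deposited as percent methylation with coverage counts, joins replicates. Deposited region classes were used as labels; the file's fitted rates and TET activity columns were not used. Coordinates are mm9, as the submitters' processing notes state, and matched the NCBIM37 sequence at all 405 CpGs; genes are from GENCODE vM1.

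Each CpG, and each amplicon on summed reads, was tested two-sided in a logistic regression with quasi-binomial error (0.5 added to each count, dispersion moderated with limma 3.58.1 in R 4.3.3 and held at 1 or more, Benjamini-Hochberg over all CpGs or amplicons, threshold 0.05); n is 3 per line. Means were compared by exact permutation tests (Python 3.11.15). In simulated data for the comparison of lines (384 CpGs), the model found 56% of changes of 1 and 85% of changes of 2 on the log2 odds scale; for the interaction of line and day (384 CpGs) it found 27% and 59%. Replicates of a line differed by far more than sampling noise and were counted separately. PCR reads carry no molecular identifiers, so coverage overstates the number of molecules. Amplicons were named by rule: up to 10 widest rises and 5 widest falls among those called, the extremes of each class, up to 10 rising and 5 falling CpGs (at most 2 per amplicon), up to 4 CpGs at 20 to 80% that were not called, and CpGs that switch from low to high. LMR7, LMR63, LMR73, ES-specific LMR28, FMR4, FMR6, UMR17, UMR18, UMR19, CTCF50, REST56, REST60, REST69 and the untested amplicons are outside this rule and were chosen after their values were seen. The groups, rules and gene lists were chosen with earlier results of these data known. Alternatives are given in the closing section.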

Additional observations from a re-analysis of the deposited data

Results flagged for a closer look

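One result was marked for a closer look because the line difference itself differed between 2 days when tested directly. The mean gap between TTKO and WT changed by -3.12 percentage points from day 0 to mock day 29, from 13.97 to 10.85 points over 384 CpGs (exact permutation p = 0.005). All 3 WT samples at day 29 lay above all 3 WT samples of day 0, and all 3 TTKO samples lay below those of day 0, with 39.8136% the highest TTKO level at day 29 and 39.8929% the lowest on day 0. Non-transduced day 0 samples and mock samples differ in treatment as well as in day, and these cannot be told apart. By the study's methods the cells were also kept on feeder cells up to transduction and moved to feeder-free plates soon after it, so the feeder culture changed over the same interval. The share of feeder DNA in a sample was not measured, and its part in the levels of day 0 and the early mock days was not tested.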

How the results depend on the processing

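The count of CpGs that differed between the lines stayed within 1.5 times of 182 under every alternative tried: 1000 reads in every sample (173 of 325), limma on logit levels (186), dispersion of each CpG by itself (162), 1 added to each count (182), 12 samples sharing the dispersion (202), a difference of at least 10 points as well (123), and leaving out 1 replicate (151 to 169). For amplicons the range was 37 to 45 around 44. The mean difference kept its direction throughout, from 9.95 points over CpGs with a level in all 78 amplicon samples to 13.3 points between the median levels of the lines (the median difference of a CpG was 3.52), and so did the mean of every class.

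Replicate numbers did not pair the samples. The deviations of same-numbered WT and TTKO samples correlated at -0.007, -0.051 and -0.019, and no sample correlated best with its own number. With the replicate number as a block 171 CpGs and 45 amplicons were called, none in the interaction test, and the paired mean difference of 10.9 points had p = 0.25, the smallest its exact permutation allows.

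The interaction of line and day gave 0 CpGs in the report, 4 with mock day 4 and 30 with mock day 8 as the early point, 1 with each CpG's own dispersion, and 0 to 1 when a replicate was left out, the 1 without TTKO mock day 29 replicate 2; the cause was not tested. The change of the mean gap was reversed with those early points, at 6.22 and 6.33 points. With at least 1000 reads in every sample only 170 CpGs were tested on each day, and the counts were 91 on day 0, 6 on day 4, 38 on day 8, 55 on day 10, 59 on day 13, 58 on day 17 and 71 on day 29.

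Of the named CpGs, chr4:139815203 was not called with the block (adjusted p = 0.0757) or without single replicates (up to 0.146), and chr12:29516210 not by limma (0.0675).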
